A study of Mus musculus with 70 samples.

Results

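Lungs of mice killed 9 months after inhaling crystalline silica were set against lungs of mice killed 3 months after the same exposure. Every silica library of those times was taken by its label, which gave 11 libraries of 9 months and 12 of 3 months out of 70 in the study, and no measured value chose them. Each library was RNA from a piece of lung of 1 male mouse, sequenced as total RNA after removal of ribosomal RNA and counted per gene. The mice came from heterozygous parents of the strain 129S-Slc26a4tm1Erg/AjgJ and were either Pds-/-, with both copies of Slc26a4 knocked out in every tissue, or Pds+/+. At 9 months the silica mice were 6 Pds-/- and 5 Pds+/+, and at 3 months they were 6 Pds-/- and 6 Pds+/+. All were about 3 months old when they breathed Min-U-Sil5, a fine quartz dust, at 15 mg/m3 for 6 hours a day on 4 days in a whole-body chamber. Mice that breathed air and were killed at the same times, 11 at 9 months and 12 at 3 months, formed a second pair of groups. The mice of 9 months were also older at death, and within the silica mice age, time since the dust and any library batch that goes with time cannot be told apart. The labels name no batch.

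Crystalline silica that reaches the alveoli is taken up by alveolar macrophages, which cannot digest it. The particles damage lysosomes, keep macrophages activated and in time lead fibroblasts to lay down collagen around clusters of dust-laden cells. Slc26a4 encodes pendrin, an anion exchanger on the surface of airway epithelial cells.

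The silica libraries held 1493786 to 3239422 counts at 9 months and 868097 to 3468575 at 3 months. The gene Lars2 took 6.58% to 8.58% of the counts in Pds+/+ silica libraries of 9 months and 8.85% to 11.6% in those of 3 months. In Pds-/- silica libraries it took 6.81% to 11.4% at 9 months and 5.6% to 9.52% at 3 months. Values below are counts normalised to library size (CPM). All 8 lung markers were present, and their sum was 20456 to 28782 CPM at 9 months and 13931 to 24400 CPM at 3 months. Heart muscle markers summed to 47.9 to 444 CPM at 9 months and 17.4 to 516 CPM at 3 months. Of the lymph node and thymus markers Ccl21a was at 0 throughout, and the set summed to 27.7 to 50.4 CPM at 9 months and 20.7 to 50.9 CPM at 3 months. Of the red cell markers Hba-a1 and Hbb-bs were at 0 throughout, and Alas2 had 105 to 3876 CPM at 9 months and 75.2 to 2521 CPM at 3 months. Replicate 3 of the Pds-/- silica mice of 3 months stood apart from its group. Its correlation with the mean of its group mates was 0.961, against 0.967 to 0.988 for the other silica libraries. Among the air libraries of 9 months Pds+/+ replicate 5 and Pds-/- replicates 4 and 5 stood apart, at 0.955, 0.954 and 0.966.

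Slc26a4 checked the genotype labels. In Pds-/- silica lungs its lowest, median and highest values were 10.3, 12.5 and 13.8 CPM at 9 months and 3.40, 14.0 and 36.4 CPM at 3 months. Pds+/+ silica lungs had 66.4, 55.9, 20.6, 52.4 and 78.9 CPM at 9 months and a lowest, median and highest value of 43.2, 55.2 and 74.0 CPM at 3 months. The genotypes did not overlap at either time, although the knockout libraries held reads of the gene, and a count per gene does not show which exons they came from. Between 9 and 3 months Slc26a4 did not pass the test, with a log2 fold change of -0.14 ± 0.19 (standard error, SE; adjusted p = 0.694).

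Many genes differed between the times, most by small amounts. With genotype as a block, 1606 of 12855 genes passed an adjusted p of 0.05 in edgeR's quasi-likelihood test, which is 12.5% of those tested, 762 of them higher at 9 months (5.93%) and 844 lower (6.57%). The change was under 1.5-fold for 1317 of them, and 33 changed by 2-fold or more, 20 higher and 13 lower. The median log2 fold change over all genes tested was 0.01. Lists of genes were read against these shares. With every library thinned to the depth of the shallowest, 900 of 10705 genes passed (8.41%), 393 higher (3.67%) and 507 lower (4.74%). The counts of some lists below then fell by more than 1.5 times, to 5 lower for smooth muscle and pericytes, 5 lower for chaperones, 4 higher for ciliated cells, 3 higher for NRF2 and glutathione, and 2 higher each for B cells and plasma cells, interferon-stimulated genes, complement, and interstitial macrophages and monocytes. Lipid-laden and scar-type macrophages then had 0 lower. Matrix, vessel and immediate early genes were mostly lower at 9 months, and alveolar macrophage, lysosome and ciliated cell genes mostly higher. In a piece of whole lung, fewer cells of a type and less RNA per cell cannot be told apart.

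**Figure D1:**
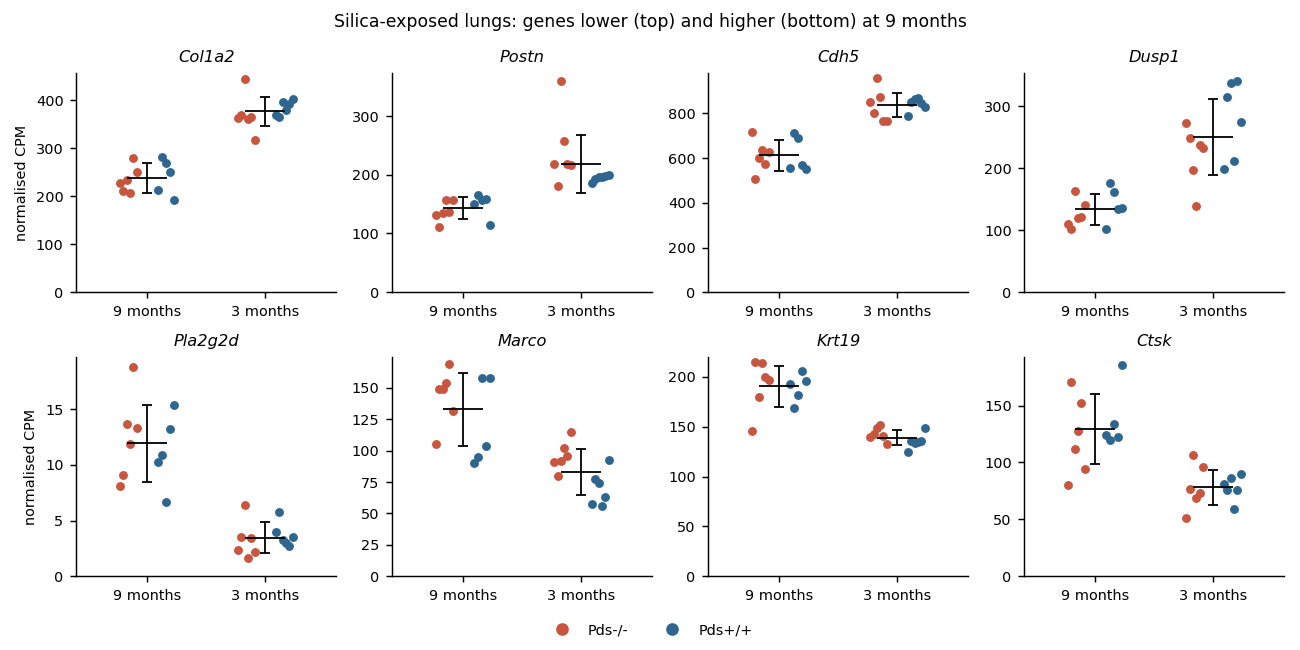
Normalised CPM (y axes) of 8 genes in each silica-exposed mouse of 9 months (left, 11 mice) and 3 months (right, 12 mice), Pds-/- left of Pds+/+, with the mean and SD over both genotypes. Col1a2, Postn and Cdh5 at 9 months lay below every mouse of 3 months and Pla2g2d lay above every one, while Dusp1, Marco, Krt19 and Ctsk overlapped.

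Extracellular matrix genes were lower at 9 months. Of 21 tested members 16 were lower at 9 months and 0 higher, with a median log2 fold change of -0.52. Col1a2, which encodes a chain of type I collagen (chr6:4505618-4541543, GRCm38), had a lowest, median and highest value of 193, 234 and 281 CPM at 9 months, against 317, 370 and 444 CPM at 3 months. No mouse of 9 months reached the lowest mouse of 3 months. The log2 fold change was -0.66 ± 0.06 (adjusted p = 8.23e-08). Postn, which encodes the matrix protein periostin (chr3:54359267-54391041), had 111, 150 and 165 CPM at 9 months and 181, 199 and 360 CPM at 3 months, again without overlap (-0.61 ± 0.09, adjusted p = 3.69e-05). Col3a1, the type III collagen of soft tissue, had medians of 343 and 521 CPM at 9 and 3 months (-0.55 ± 0.08, adjusted p = 1.39e-05). Col6a1, a chain of the collagen VI that surrounds cells, had medians of 225 and 305 CPM (-0.42 ± 0.06, adjusted p = 3.58e-05). For both the ranges overlapped. The other called members were Col1a1, Col5a1, Col5a2, Col15a1, Fbn1, Fn1, Tnc, Sparc, Lox, Loxl1, Loxl2 and Timp1, which are collagens, other matrix proteins, enzymes that crosslink collagen and an inhibitor of matrix proteases. Without replicate 3 of the Pds-/- silica mice of 3 months, 16 of 21 members were again lower, with a median of -0.43, in a fit that called 14.6% of all genes, 7.08% higher and 7.53% lower.

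Vessel and stromal genes were lower as well. Of 18 endothelial genes 12 were lower and 0 higher (median -0.32). Cdh5, the adhesion protein that holds endothelial cells together (chr8:104101613-104144504), had 505, 602 and 716 CPM at 9 months and 766, 849 and 957 CPM at 3 months. The ranges did not overlap (-0.45 ± 0.06, adjusted p = 3.26e-06). Tie1 and Tek, receptors of the angiopoietin pathway, changed by -0.39 ± 0.05 and -0.30 ± 0.05 (adjusted p = 9.84e-06 and 0.00012). Aplnr, the receptor for the vessel peptide apelin, had medians of 53.2 and 89.5 CPM at 9 and 3 months (-0.75 ± 0.12, adjusted p = 0.00012). Of 15 genes of smooth muscle and pericytes 9 were lower and 0 higher (median -0.37). Among them were Pdgfrb, a growth factor receptor of pericytes (-0.45 ± 0.08, adjusted p = 0.000151), Notch3, a receptor needed by vascular smooth muscle (-0.46 ± 0.09, adjusted p = 0.000583), and Tagln, an actin-binding protein of smooth muscle (-0.54 ± 0.11, adjusted p = 0.000891). Of 16 fibroblast genes 8 were lower and 0 higher (median -0.26). Npnt, a matrix protein of the alveolar wall, had medians of 552 and 715 CPM (-0.29 ± 0.05, adjusted p = 0.000124). Pdgfra, a growth factor receptor of alveolar fibroblasts, had medians of 527 and 657 CPM (-0.27 ± 0.05, adjusted p = 0.000311).

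Genes of rapid response were lower at 9 months. Of 22 immediate early genes, which cells switch on within minutes of a stimulus, 15 were lower and 0 higher (median -0.51). Dusp1, a phosphatase that ends MAP kinase signals, had 102, 135 and 176 CPM at 9 months against 140, 244 and 341 CPM at 3 months. The upper mice of 9 months overlapped with the lower ones of 3 months (-0.89 ± 0.11, adjusted p = 3.26e-06). Jun, a subunit of the transcription factor AP-1, had medians of 182 and 259 CPM (-0.49 ± 0.07, adjusted p = 9.69e-06). Btg2, an inhibitor of cell division, had medians of 124 and 188 CPM (-0.55 ± 0.07, adjusted p = 2.93e-06). Zfp36, which destabilises messenger RNA of inflammatory genes, had medians of 56.3 and 88.7 CPM (-0.55 ± 0.09, adjusted p = 0.000126). The other called members were Fos, Junb, Jund, Egr1, Ier2, Nr4a1, Nr4a2, Nr4a3, Klf2, Klf4 and Socs3. In air lungs of the same times 9 of the 22 were lower and 1 higher, where 13.4% of all genes were lower and 15.7% higher. Without the 3 air libraries that stood apart 7 were lower and 1 higher, where 8.2% of all genes were lower and 9.34% higher.

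Dusp1 and Btg2 are shown because they are the members of this list with a cyclic AMP response element, TGACGTCA, in the 250 bases before the start of the gene, 2 of the 19 tested members matched in RefSeq's promoter table. Over all 32851 windows of that length 1.55% held these letters, which read the same on both strands. A member was counted if any of its windows held them, while this share is over single windows. The windows are on the strand of the gene (GRCm38.p6, both minus), with the match in capitals, at chr17:26508473-26508722 for Dusp1 and chr1:134079156-134079405 for Btg2. A match describes letters and not binding.
Dusp1: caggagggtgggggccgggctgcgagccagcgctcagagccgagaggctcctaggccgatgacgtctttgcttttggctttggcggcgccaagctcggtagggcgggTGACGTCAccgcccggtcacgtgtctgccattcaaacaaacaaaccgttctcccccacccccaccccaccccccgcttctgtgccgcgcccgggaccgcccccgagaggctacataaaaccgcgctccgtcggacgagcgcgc
Btg2: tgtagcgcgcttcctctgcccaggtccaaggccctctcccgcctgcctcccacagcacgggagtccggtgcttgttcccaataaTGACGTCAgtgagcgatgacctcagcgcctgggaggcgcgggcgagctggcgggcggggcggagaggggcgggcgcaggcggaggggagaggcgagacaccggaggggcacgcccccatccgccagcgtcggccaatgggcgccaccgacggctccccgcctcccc

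Of 16 genes that respond to glucocorticoid, the stress hormone of the adrenal gland, 9 were lower and 0 higher (median -0.45). Zbtb16, a zinc finger transcription factor induced by that hormone, had 33.9, 56.9 and 78.5 CPM at 9 months and 34.8, 130 and 222 CPM at 3 months. The lowest mouse of 3 months was the library that stood apart, and the next lowest, at 95.5 CPM, lay above every mouse of 9 months (-1.26 ± 0.19, adjusted p = 4.69e-05). Errfi1, a feedback inhibitor of growth factor receptors, had medians of 133 and 208 CPM at 9 and 3 months (-0.67 ± 0.08, adjusted p = 2.93e-06). Per1, which is both a glucocorticoid target and part of the circadian clock, had 35.0, 49.8 and 95.6 CPM at 9 months and 60.7, 116 and 171 CPM at 3 months (-1.02 ± 0.15, adjusted p = 3.69e-05). Of 18 clock genes Per1 was lower and Bhlhe41, a repressor within the clock, was higher (0.34 ± 0.11, adjusted p = 0.0471), a call that was lost when any of 14 single libraries was left out. Without replicate 3 of the Pds-/- silica mice of 3 months 1 clock gene was higher and 7 were lower. In air lungs of the same times 10 of 18 clock genes were lower and 6 higher. Of 16 glucocorticoid genes 7 were lower and 4 higher there. Without the 3 air libraries that stood apart 6 clock genes were lower and 3 higher, and 7 glucocorticoid genes were lower and 2 higher. The shares of all genes in air lungs are those given above. The hour of death is not given in the sources used here, and its part in these genes was not tested.

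Of 14 chaperone genes 8 were lower at 9 months and 0 higher (median -0.37). Hspa1b, an inducible chaperone that refolds proteins after stress, had 0.793, 4.02 and 5.97 CPM at 9 months and 3.18, 7.06 and 21.5 CPM at 3 months. The groups overlapped, with the highest mice all among those of 3 months (-1.40 ± 0.30, adjusted p = 0.00171). Its near-identical neighbour Hspa1a changed by -1.12 ± 0.26 (adjusted p = 0.0043), and reads may have been divided between the pair in counting. Hspa8, the chaperone that cells make at all times, had medians of 491 and 636 CPM at 9 and 3 months (-0.44 ± 0.09, adjusted p = 0.00132). Dnaja1 and Chordc1, which work with these chaperones, changed by -0.35 ± 0.08 and -0.40 ± 0.09 (adjusted p = 0.00191 and 0.00223). In air lungs of the same times 2 of the 14 were lower and 1 higher, where 29.1% of all genes passed, and 0 passed without the 3 air libraries that stood apart, where 17.5% of all genes did. The median over the list of the silica change minus the air change was -0.37, or -0.34 without those 3 libraries, and 0 members passed the test of that difference. Some other lists had a median further from 0. Without those 3 libraries it was -0.55 for neutrophil markers, -0.42 for neutrophil-attracting CXC chemokines and 0.36 for interferon-stimulated genes.

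Macrophage genes were higher at 9 months. Of 13 genes of resident alveolar macrophages 10 were higher and 0 lower, and their median log2 fold change of 0.56 was the highest of the 46 lists. Marco, a scavenger receptor that binds inhaled particles, had 89.9, 149 and 169 CPM at 9 months against 55.9, 85.4 and 115 CPM at 3 months. The groups overlapped (0.66 ± 0.10, adjusted p = 3.84e-05). Atp6v0d2, a subunit of a proton pump of macrophage lysosomes, had medians of 118 and 73.4 CPM (0.61 ± 0.11, adjusted p = 0.000207). Plet1, a surface protein of alveolar macrophages, had medians of 118 and 69.3 CPM (0.56 ± 0.10, adjusted p = 0.000233). The other members called were Siglecf, Pparg, Chil3, Itgax, Krt79, Cd9 and Ctsd. Chil3, a chitinase-like protein secreted by macrophages, had 633, 1002 and 2466 CPM at 9 months and 381, 612 and 1415 CPM at 3 months (0.82 ± 0.20, adjusted p = 0.00514). Its highest mouse of 3 months was the library that stood apart, and without it the change was 0.99 (adjusted p = 4.18e-05). In air lungs of the same times 9 of the 13 alveolar macrophage genes were higher (median 1.13), where 15.7% of all genes were. Without the 3 air libraries that stood apart 9 were higher (median 0.72), where 9.34% of all genes were.

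Of 19 lysosome genes 12 were higher and 0 lower (median 0.26). Ctsk, a protease that can cut collagen, had 79.9, 124 and 186 CPM at 9 months and 50.9, 76.2 and 106 CPM at 3 months, with overlap (0.73 ± 0.11, adjusted p = 6.38e-05). Cd68, a lysosome membrane protein of macrophages, had medians of 78.5 and 46.2 CPM (0.64 ± 0.12, adjusted p = 0.000354). Laptm5, a lysosome membrane protein of blood cells, and Ctsb, a lysosomal protease, changed by 0.45 ± 0.09 and 0.33 ± 0.07 (adjusted p = 0.00108 and 0.00263).

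Genes of lipid-laden and scar-type macrophages were partly higher. Of 15 such genes 4 were higher and 1 lower (median 0.24), against 5.93% and 6.57% of all genes tested. Without the library that stood apart 7 were higher and 1 lower. Gpnmb, a glycoprotein of macrophages that have taken up debris, had 143, 199 and 302 CPM at 9 months and 73.3, 100 and 269 CPM at 3 months (0.83 ± 0.16, adjusted p = 0.000512). The highest mouse of 3 months was that library, and without it the change was 1.06 (adjusted p = 1.89e-09). Spp1, which encodes osteopontin, was higher (0.58 ± 0.11, adjusted p = 0.000731), and Mmp14, a membrane protease that cuts collagen, was lower (-0.41 ± 0.09, adjusted p = 0.0017). Of 14 genes of interstitial macrophages and monocytes 4 were higher and 2 lower. Lyve1, carried by macrophages around vessels and by lymphatic endothelium, was lower, with medians of 118 and 170 CPM at 9 and 3 months (-0.65 ± 0.11, adjusted p = 0.000127). Mrc1, the mannose receptor, was higher (0.40 ± 0.09, adjusted p = 0.00283), as was Csf1r, the receptor for the macrophage growth factor (0.28 ± 0.07, adjusted p = 0.00893).

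Pla2g2d, a secreted phospholipase (chr4:138775735-138782052), was higher in every mouse of 9 months than in any of 3 months. It had 6.71, 11.9 and 18.8 CPM at 9 months, against 1.62, 3.36 and 6.37 CPM at 3 months (1.73 ± 0.20, adjusted p = 1.17e-06). In air lungs its medians were 3.45 and 1.42 CPM at 9 and 3 months, and it passed there as well (2.40 ± 0.42, adjusted p = 2.21e-05; 1.15 ± 0.32, adjusted p = 0.00832 without the 3 air libraries that stood apart). Cxcr1, a chemokine receptor of neutrophils, had 11.4, 20.2 and 25.2 CPM at 9 months and 1.18, 7.31 and 21.2 CPM at 3 months (1.16 ± 0.21, adjusted p = 0.000301). Clec4e, a receptor for lipids of microbes and dead cells, had medians of 19.7 and 7.24 CPM (1.14 ± 0.19, adjusted p = 0.000138). Prlr, the prolactin receptor, had medians of 4.74 and 1.68 CPM (1.17 ± 0.24, adjusted p = 0.00109). These 3 overlapped between the times, Cxcr1 through the library that stood apart alone, since the next highest mouse of 3 months had 10.7 CPM. Among the other large rises were Apol11b, of the apolipoprotein L family (1.60 ± 0.27, adjusted p = 0.00018), Ccdc33 (1.12 ± 0.17, adjusted p = 4.03e-05) and Irg1, which makes itaconate in activated macrophages (1.09 ± 0.31, adjusted p = 0.0176). The small nucleolar RNAs Snora64 and Snora44 changed by 2.08 ± 0.44 and 1.11 ± 0.17 (adjusted p = 0.0017 and 4.27e-05). They lie inside host genes, and a count per gene does not show whether reads came from host or guest. In Pds-/- mice of 9 months replicate 5 had 20.7 CPM of Snora64, against 0.677 to 7.59 CPM in the others. Among the large falls, Sox11 and Nr2f1, transcription factors of development, changed by -1.07 ± 0.28 and -1.06 ± 0.29 (adjusted p = 0.0108 and 0.0144).

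Airway epithelial genes were higher. Of 14 ciliated cell genes 9 were higher and 0 lower (median 0.43). Dnah5, a motor protein of the beating cilium, had 110, 150 and 179 CPM at 9 months and 55.6, 110 and 137 CPM at 3 months, with overlap (0.44 ± 0.10, adjusted p = 0.00289). Dnah9, another such motor, and Cfap43, a structural protein of the cilium, changed by 0.44 ± 0.10 and 0.44 ± 0.10 (adjusted p = 0.00279 and 0.00391). Of 12 club and airway secretory genes 5 were higher and 0 lower (median 0.25). Scgb1a1, the main secretory protein of club cells, had 8654, 13882 and 16314 CPM at 9 months and 3920, 9684 and 12684 CPM at 3 months (0.48 ± 0.12, adjusted p = 0.00612). The mouse at 3920 CPM was Pds-/-, and the lowest Pds+/+ mouse of 3 months had 9737 CPM. Cyp2a5, a detoxifying enzyme with close relatives in the genome, had medians of 93.7 and 47.9 CPM (0.83 ± 0.15, adjusted p = 0.000397). Of 18 xenobiotic enzymes 5 were higher and 1 lower, among them Aox3, an aldehyde oxidase (0.35 ± 0.07, adjusted p = 0.000465), and Cyp2s1, a cytochrome P450 of epithelium (0.50 ± 0.10, adjusted p = 0.000618).

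In the alveoli 2 of 16 type 2 cell genes, 2 of 14 type 1 cell genes and 4 of 14 genes of stressed epithelium were higher, and 0 of each were lower. The type 1 count was 1 when any of 10 single libraries was left out, and 3 higher and 1 lower without the library that stood apart. Without Pds+/+ replicate 1 of 3 months 1 gene of stressed epithelium was lower. Krt19, a keratin of airway and injured alveolar epithelium, had 146, 196 and 215 CPM at 9 months and 125, 138 and 152 CPM at 3 months, and the ranges overlapped at their ends (0.46 ± 0.06, adjusted p = 2.93e-06). Itgb6, an integrin chain that activates TGF-beta, had medians of 127 and 86.8 CPM (0.47 ± 0.08, adjusted p = 0.000273). Of 21 NRF2 and glutathione genes 8 were higher and 1 lower. Slc7a11, which imports cystine for glutathione, was higher (0.68 ± 0.14, adjusted p = 0.000879). Gsr, which recycles glutathione, was higher (0.38 ± 0.08, adjusted p = 0.00138), as was Gsta4, a glutathione transferase with close relatives (0.46 ± 0.10, adjusted p = 0.0022). Scnn1b, a subunit of the epithelial sodium channel, was higher (0.24 ± 0.07, adjusted p = 0.0236).

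**Figure D2:**
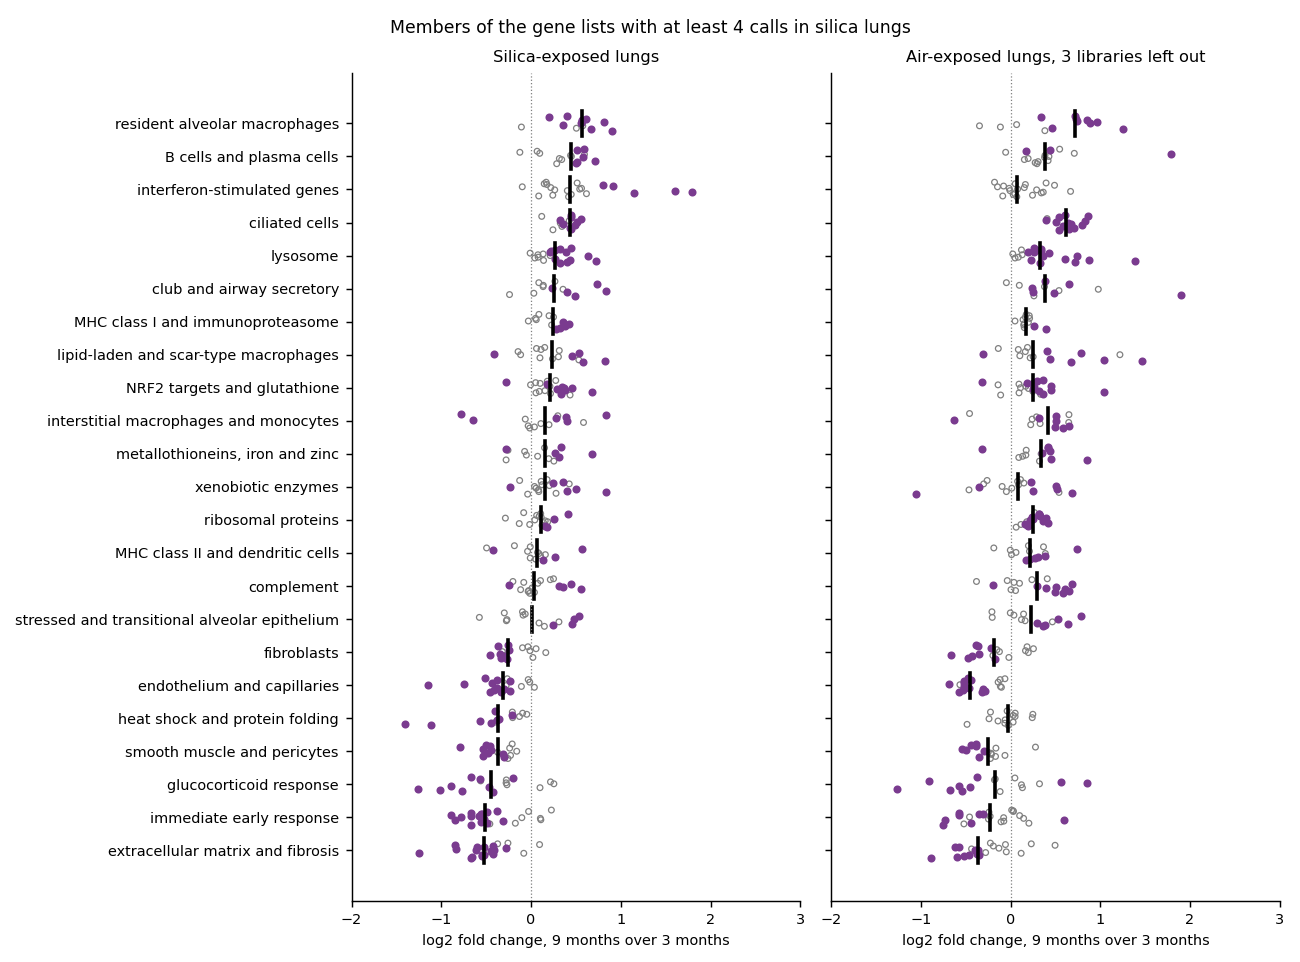
Log2 fold change (x axes, 9 months over 3 months) of the tested members of each list with at least 4 calls in silica lungs, in silica lungs (left) and in air lungs with 3 libraries left out (right). Filled points passed adjusted p of 0.05 and black bars are medians, which ran from -0.52 for extracellular matrix to 0.56 for resident alveolar macrophages in silica lungs.

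B cell and MHC class I genes were partly higher, while 0 of 10 T cell and natural killer cell genes passed (median -0.07). Of 14 MHC class II and dendritic cell genes 3 were higher and 1 lower (median 0.06). In a model of all 70 libraries 0 of that list were higher. Of 15 B cell and plasma cell genes 6 were higher and 0 lower (median 0.45), and 9 were higher without the library that stood apart, 4 without Pds+/+ replicate 5 of 3 months. Cd79b, a chain of the B cell receptor, had 14.5, 25.0 and 34.5 CPM at 9 months and 5.40, 14.7 and 25.5 CPM at 3 months, with overlap (0.71 ± 0.15, adjusted p = 0.00201). Cd22, a brake on that receptor, had medians of 36.7 and 22.8 CPM (0.51 ± 0.13, adjusted p = 0.00757). The lymph node and thymus marker set, which shares Cd79a and Ms4a1 with this list, had a median sum of 37.1 CPM at 9 months and 27.9 CPM at 3 months, and its part in these genes was not tested. Of 12 MHC class I and immunoproteasome genes 5 were higher and 0 lower (median 0.24), and 3 without replicate 2 of the Pds-/- silica mice of 9 months. B2m, the invariant chain of class I molecules, had 599, 752 and 1198 CPM at 9 months and 524, 592 and 639 CPM at 3 months, with overlap (0.42 ± 0.08, adjusted p = 0.000432). H2-D1 and H2-Q4, whose sequences are alike, changed by 0.32 ± 0.07 and 0.38 ± 0.08 (adjusted p = 0.00268 and 0.00277). Cd274, the ligand PD-L1 that restrains T cells, had medians of 41.7 and 25.4 CPM (0.68 ± 0.12, adjusted p = 0.000279). Ccr7, which guides dendritic cells and T cells to lymph nodes, was lower, with medians of 14.8 and 22.9 CPM (-0.56 ± 0.11, adjusted p = 0.000632). Ccl6, a chemokine of myeloid cells, was higher (0.46 ± 0.09, adjusted p = 0.00106).

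Some interferon-stimulated genes had large fold changes, carried most by single mice. Of 20 tested members 5 were higher and 0 lower (median 0.43). Oas1a, Oas2 and Oas3 lie together on chromosome 5 and encode enzymes that sense viral RNA, and reads may be divided between such relatives. Oas3 had 0.826, 3.58 and 19.7 CPM at 9 months and 0, 2.01 and 2.70 CPM at 3 months (1.61 ± 0.43, adjusted p = 0.0107). Oas2 had 1.59, 4.67 and 43.8 CPM at 9 months and 0, 2.02 and 5.37 CPM at 3 months (1.80 ± 0.52, adjusted p = 0.0192). In both genes the highest mouse was Pds+/+ replicate 5 of 9 months and the next was Pds-/- replicate 1 of 9 months, while the other mice overlapped. Ifi27l2a, another interferon target, had 5.11, 9.16 and 134 CPM at 9 months and 1.80, 4.69 and 9.54 CPM at 3 months (1.79 ± 0.52, adjusted p = 0.0205), with the same pair of mice highest. Without Pds+/+ replicate 5 the log2 fold change of Oas2 (1.04, adjusted p = 0.0594) and that of Ifi27l2a (0.76, adjusted p = 0.0934) did not pass. Oas3 (1.14, adjusted p = 0.0247), Oas1a (0.88, adjusted p = 0.019) and Usp18, which dampens interferon signals (0.61, adjusted p = 0.00347), still did. The count of the list was then 3 of 20, as it was without Pds-/- replicate 1, 2 or 5 of 9 months.

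The promoters of Oas3 and Oas1a are shown because they hold the interferon-stimulated response element, the site through which interferon is known to switch on such genes. It was searched on both strands, as GAAA and GAAA with any 2 bases between them, in the 250 bases before the start of each gene. RefSeq's table matched 14 tested members, of which 9 held it, against 2.98% of all 32851 windows. Of the 5 called members 3 were matched and 2 held the letters. The windows are on the strand of the gene (GRCm38.p6, both minus), at chr5:120777660-120777909 for Oas3 and chr5:120907526-120907775 for Oas1a, with matches in capitals. In Oas1a 2 matches overlap.
Oas3: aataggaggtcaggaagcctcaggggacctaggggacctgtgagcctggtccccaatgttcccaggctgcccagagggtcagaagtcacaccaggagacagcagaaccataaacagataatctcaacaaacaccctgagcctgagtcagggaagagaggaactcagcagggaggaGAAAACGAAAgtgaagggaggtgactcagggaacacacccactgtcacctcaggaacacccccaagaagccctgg
Oas1a: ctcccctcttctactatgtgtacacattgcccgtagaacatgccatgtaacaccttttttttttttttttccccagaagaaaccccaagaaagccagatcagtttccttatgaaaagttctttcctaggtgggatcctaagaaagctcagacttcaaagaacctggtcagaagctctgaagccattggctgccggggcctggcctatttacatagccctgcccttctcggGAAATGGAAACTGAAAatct

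**Figure D3:**
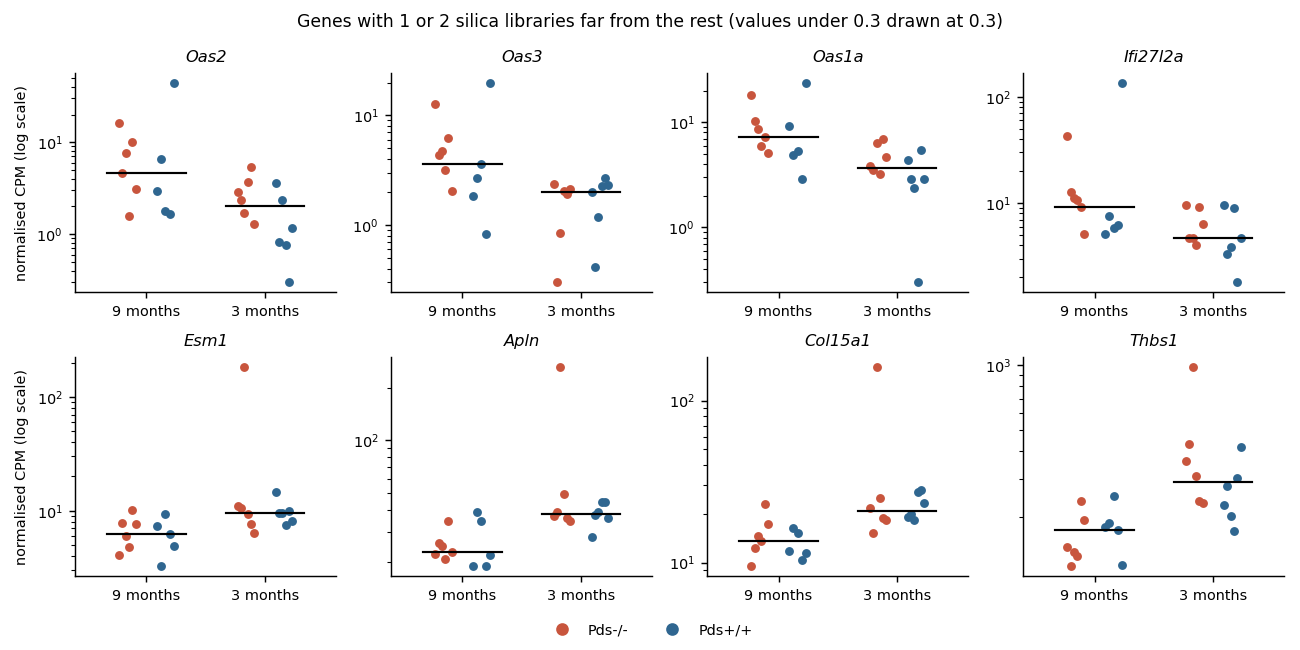
Normalised CPM on log axes of 8 genes in each silica-exposed mouse of 9 months (left) and 3 months (right), with bars at the median and values under 0.3 drawn at 0.3. Pds+/+ replicate 5 of 9 months is the highest mouse for Oas2, Oas3, Oas1a and Ifi27l2a, and Pds-/- replicate 3 of 3 months is the highest for Esm1, Apln, Col15a1 and Thbs1.

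Several of the largest falls were carried in part by the silica library of 3 months that stood apart. Esm1, a secreted product of endothelium, had 3.25, 6.19 and 10.1 CPM at 9 months and 6.41, 9.50 and 182 CPM at 3 months (-1.86 ± 0.53, adjusted p = 0.0176). The next highest mouse of 3 months was at 14.7 CPM, and without the library that stood apart the change was -0.50 (adjusted p = 0.0432). Col15a1, a collagen of basement membrane zones, had 9.47, 13.5 and 23.1 CPM at 9 months and 15.3, 20.8 and 161 CPM at 3 months (-1.25 ± 0.33, adjusted p = 0.00966), and changed by -0.59 (adjusted p = 0.00121) without it. Apln, which encodes apelin, changed by -1.15 ± 0.30 (adjusted p = 0.00988) and by -0.57 (adjusted p = 0.000547) without it. Thbs1, which encodes thrombospondin 1, changed by -0.99 ± 0.20 (adjusted p = 0.00125) and by -0.74 (adjusted p = 0.000168) without it. Adamtsl2, a protein of matrix microfibrils, changed by -1.01 ± 0.17 (adjusted p = 0.000168) and by -0.78 (adjusted p = 1.25e-06) without it. Wisp1, a matricellular signal protein, changed by -1.42 ± 0.44 (adjusted p = 0.0289) and had too few counts to be tested without it, and its call was also lost without Pds-/- replicate 3, 4 or 6 of 9 months. The 5 genes that could be tested without that library still passed, each with a smaller change. Among the named genes, Zbtb16, Cxcr1, Atp6v0d2, Gpnmb, Cd68, Lgals3, Tek and Errfi1 overlapped between the times through that library alone. They were picked for that trait, so their separation without that library is no test.

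In 7 lists 0 members passed: cell division (14 tested), T cells and natural killer cells (10), heart muscle (15), histones (7), mitochondrial respiration (17), red cells (4) and lymphoid tissue chemokines (5). Top2a, which untangles DNA in dividing cells, had medians of 19.9 and 21.0 CPM at 9 and 3 months (-0.30 ± 0.13, adjusted p = 0.137). Cxcr6, a chemokine receptor of lung T cells, had medians of 5.95 and 3.55 CPM (0.52 ± 0.21, adjusted p = 0.101). Cox4i1, a subunit of the last respiratory enzyme, had medians of 104 and 90.6 CPM (0.12 ± 0.06, adjusted p = 0.176). With single libraries left out, T cells and natural killer cells had 1 member higher or lower in 3 fits and mitochondrial respiration 1 higher in 1 fit. A p that misses the threshold does not show that these levels were equal. Of 17 complement genes 4 were higher and 1 lower, with C4b higher (0.35 ± 0.08, adjusted p = 0.0022) and C7, a part of the membrane attack complex, lower (-0.25 ± 0.05, adjusted p = 0.000889). Of 13 metal genes 4 were higher and 1 lower, with Trf, the iron carrier transferrin, at medians of 267 and 209 CPM (0.33 ± 0.07, adjusted p = 0.00111). Pigr, which carries antibody across epithelium, was higher (0.70 ± 0.16, adjusted p = 0.00342), and Igfbp3, which binds insulin-like growth factors, was lower (-0.43 ± 0.10, adjusted p = 0.00302).

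The genotypes were then tested apart. In Pds-/- silica lungs 1036 genes passed between 9 and 3 months (8.06%), 496 higher (3.86%) and 540 lower (4.2%). In Pds+/+ silica lungs 375 passed (2.92%), 138 higher (1.07%) and 237 lower (1.84%). The Pds+/+ count moved with single libraries. It was 156 without Pds+/+ replicate 5 of 9 months, 196 without Pds+/+ replicate 1 of 9 months, 223 and 215 without Pds+/+ replicates 2 and 3 of 3 months, and 654 without Pds-/- replicate 3 of 3 months, which enters through the shared estimate of spread. The test of the difference between the genotypes called 0 of 12855 genes (0%) in edgeR, with 970 at an unadjusted p under 0.05, and 1 gene each in DESeq2 and in voom with quality weights. Of the 1606 genes called over both genotypes, 1605 had the same direction in Pds-/- and Pds+/+ mice. A test over both genotypes picks such genes, so this count is no evidence that the genotypes agree. Over all genes tested Pearson's r between the changes of the genotypes was 0.466, and 178 genes passed in both in the same direction. The smallest p in the test of the difference belonged to Fbrs, which encodes fibrosin. In Pds-/- mice it had 41.8, 54.7 and 65.6 CPM at 9 months and 40.6, 44.2 and 55.1 CPM at 3 months, and in Pds+/+ mice 27.7, 40.7 and 47.5 CPM at 9 months and 53.2, 59.9 and 74.0 CPM at 3 months. The change in Pds-/- minus that in Pds+/+ mice was 0.86 ± 0.17 (adjusted p = 0.251). Ciliated genes passed in 9 of 14 members in Pds-/- mice and in 0 in Pds+/+ mice, with medians of 0.56 and 0.24, and heat shock genes in 7 of 14 and 0 of 14, with medians of -0.41 and -0.27. Club and airway secretory genes passed in 3 of 12 and 0 of 12, with medians of 0.47 and 0.09. Xenobiotic enzymes passed in 5 of 18 and 0 of 18, with medians of 0.23 and 0.09. No gene passed the test of the difference in edgeR, so these counts do not show that the genotypes differ.

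Air lungs of the same times changed in many of the same genes. In air lungs 3819 of 13112 genes passed between 9 and 3 months, 2059 higher (15.7%) and 1760 lower (13.4%), and without the 3 air libraries that stood apart 2305 of 13144 did, 1227 higher (9.34%) and 1078 lower (8.2%). Of the 1606 genes called in silica lungs 1178 were called in air lungs in the same direction, which is 73.3% of the silica calls and 31.2% of the air calls among genes tested in both, and 4 were called in the opposite direction. Without the 3 libraries 995 were shared, 62% of the silica calls and 43.7% of the air calls, and 0 were opposite. Col1a2 had medians of 245 and 348 CPM in air lungs of 9 and 3 months (-0.52 ± 0.08, adjusted p = 8.59e-07; -0.59 ± 0.07, adjusted p = 1.46e-08 without the 3 libraries). Marco changed in air lungs by 1.97 ± 0.25, and by 1.25 ± 0.14 without them. Without the 3 libraries 11 of 21 matrix genes and 12 of 18 endothelial genes were lower in air lungs, and 9 of 13 alveolar macrophage genes, 14 of 19 lysosome genes and 13 of 14 ciliated genes were higher. In that order the medians were -0.37, -0.45, 0.72, 0.32 and 0.62, against -0.52, -0.32, 0.56, 0.26 and 0.43 in silica lungs. In these lists 0 members passed the test of the silica change minus the air change.

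**Figure D4:**
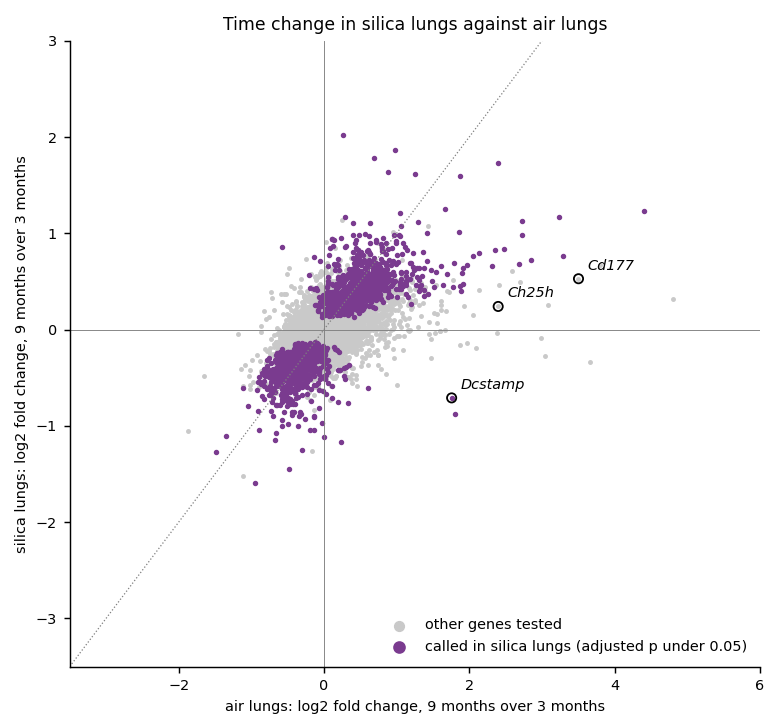
Log2 fold change, 9 months over 3 months, in silica lungs against air lungs for 12852 genes, from 1 model of the 46 libraries of both times (1 gene lies outside the axes). The dotted line marks equal change and circles mark Ch25h, Cd177 and Dcstamp. Pearson's r across genes was 0.604, which describes genes that share their libraries and is no test.

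The difference between the silica and air time changes passed for 3 of 13112 genes (0.0229%), with 1746 at an unadjusted p under 0.05. In all 3 the time change, and not the level, was lower in silica than in air lungs. Ch25h, which makes 25-hydroxycholesterol (chr19:34473783-34475148), had 10.8, 15.8 and 19.4 CPM in silica lungs of 9 months and 8.53, 14.2 and 18.3 CPM in silica lungs of 3 months. Air lungs had 4.76, 8.19 and 36.7 CPM at 9 months and 0.954, 2.41 and 5.03 CPM at 3 months. The silica mice of both times overlapped, and the air mice of 3 months lay below them all. The silica change minus the air change was -2.16 ± 0.39 (adjusted p = 0.0163), and -1.37 ± 0.26 (adjusted p = 0.0433) without the 3 air libraries. Those libraries, at 36.7, 29.3 and 21.6 CPM, were the highest of the air mice.

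Cd177, a surface protein of neutrophils (chr7:24743983-24760334), had 20.6, 54.8 and 92.0 CPM in silica lungs of 9 months and 15.3, 36.3 and 54.9 CPM in those of 3 months. Air lungs had 12.4, 28.0 and 244 CPM at 9 months and 2.78, 6.71 and 10.7 CPM at 3 months. The highest air mice were again the 3 that stood apart. The difference was -2.98 ± 0.60 (adjusted p = 0.0478), and -1.54 ± 0.36 (adjusted p = 0.287) without them. Dcstamp, which macrophages need to fuse into giant cells and osteoclasts (chr15:39745930-39760938), had 1.08, 2.89 and 4.04 CPM in silica lungs of 9 months and 2.35, 4.42 and 6.97 CPM in those of 3 months (-0.71 ± 0.20, adjusted p = 0.0156). Air lungs had 0, 1.26 and 5.59 CPM at 9 months and 0, 0.430 and 1.06 CPM at 3 months. The difference was -2.47 ± 0.50 (adjusted p = 0.0478), and -1.75 ± 0.52 (adjusted p = 0.3) without the 3 libraries. The test without the 3 libraries called 1 gene (0.00761%), with 992 at an unadjusted p under 0.05, and without them and the silica library that stood apart edgeR called 0.

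**Figure D5:**
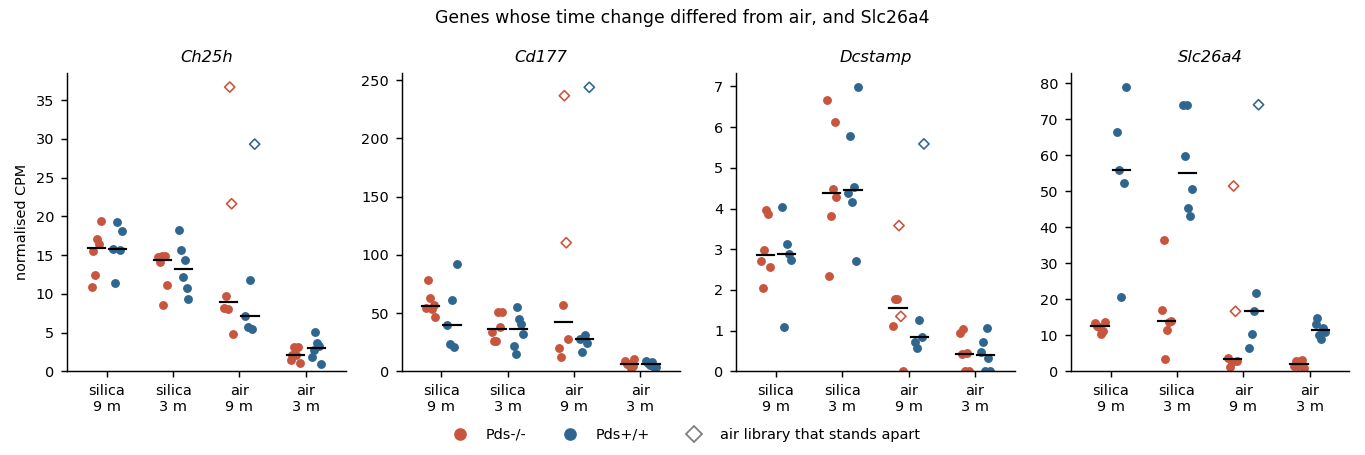
Normalised CPM (y axes) of Ch25h, Cd177, Dcstamp and Slc26a4 in each mouse of the silica and air groups at 9 and 3 months, with bars at the median of each genotype. Open diamonds are the 3 air libraries of 9 months that stood apart, which reach 36.7 CPM for Ch25h and 244 CPM for Cd177.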

How the data were processed

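RNA of mouse lung pieces was sequenced after removal of ribosomal RNA with a stranded total RNA kit, per the labels' protocols. The submitters' processing notes name bcl2fastq 2.19, Trimmomatic 0.35, HISAT2 2.1.0, Cufflinks, SAMtools 1.8, HTSeq 0.11.2 and the mm10 build, and the strand setting of the counting is not given in the sources used here. The authors deposited 1 table of raw counts per gene (24439 rows), of which 19 repeats of a symbol with identical counts were dropped. Libraries were grouped by label and carry animal numbers, so each is 1 mouse. Counts of libraries of 1 group differed by more than sampling noise in every pair.

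Genes were filtered with filterByExpr and scaled by TMM in edgeR 4.0.16 (R 4.3.3), and tested with its quasi-likelihood test and Benjamini-Hochberg adjustment over all genes tested. The first model held the 23 silica libraries with genotype as a block. A model of the 4 silica groups gave each genotype's change and their difference, and a model of 46 silica and air libraries gave the air change and the silica change minus the air change. SEs are the log2 fold change divided by the square root of F, an approximation. Printed CPM are scaled by TMM over the 46 libraries. The tests were tried on simulated counts first. Alternatives used DESeq2 1.42.0, limma 3.58.1 and sva 3.50.0, and figures were drawn with matplotlib 3.10.9. The libraries held 868097 to 3468575 counts in silica and 1464182 to 5596316 in air mice, which limits the precision of low genes.

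The members and the 46 gene lists were chosen with earlier results of these data known. Named genes are the 15 largest increases and decreases with adjusted p under 0.05 and a mean of at least 1 CPM, up to 4 members of each list by adjusted p (2 where none passed), the 3 smallest p for the genotype difference, up to 8 genes each way for silica minus air, and Slc26a4. Members named beyond that rule were chosen after their values were seen.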

Additional observations from a re-analysis of the deposited data

Results flagged for a closer look

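Of 124 sets of 5 or 6 libraries of 1 group examined for a single value far from the rest, 20 held one. The genes with such a value were all among the 15 largest increases or decreases, which does not show that other genes held such values less often. A single library can carry a large change, so no rate expected by chance is given. In Pds+/+ silica lungs of 9 months replicate 5 was far above the others in Oas2 (43.8 CPM against 1.65 to 6.51 CPM), Ifi27l2a (134 CPM against 5.14 to 7.59 CPM) and Oas3 (19.7 CPM against 0.826 to 3.58 CPM). In the same group replicate 2 was high in Hspa1b (5.97 CPM against 4.02 to 4.40 CPM) and replicate 1 in Gm10069 (2.94 CPM against 0.894 to 1.24 CPM).

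In Pds-/- silica lungs of 9 months replicate 5 was high in Snora64 (20.7 CPM against 0.677 to 7.59 CPM), Apol11b (10.1 CPM against 3.57 to 5.56 CPM) and Apln (34.7 CPM against 21.0 to 25.7 CPM), and replicate 1 in Ifi27l2a (42.6 CPM against 5.11 to 12.8 CPM).

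In Pds-/- silica lungs of 3 months replicate 3 was high in Esm1 (182 CPM against 6.41 to 10.9 CPM), Wisp1 (30.1 CPM against 1.18 to 5.37 CPM), Col15a1 (161 CPM against 15.3 to 25.2 CPM), Apln (262 CPM against 34.6 to 49.6 CPM), Adamtsl2 (117 CPM against 30.1 to 54.7 CPM) and Thbs1 (974 CPM against 232 to 433 CPM). In that group replicate 2 was shallow, with 868097 counts against 2065380 to 2533910 in the others.

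In Pds+/+ silica lungs of 3 months replicate 6 was high in Prlr (5.23 CPM against 1.19 to 1.80 CPM) and Tmem252 (17.4 CPM against 6.36 to 8.25 CPM), replicate 1 in Esm1 (14.7 CPM against 7.55 to 9.91 CPM) and replicate 4 in Nr2f1 (9.82 CPM against 4.46 to 5.40 CPM).

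By the test of the difference, the time change in silica lungs minus that in air lungs was -2.16 on the log2 scale for Ch25h, -2.98 for Cd177 and -2.47 for Dcstamp.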

How the results depend on the processing

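Of the 137 named genes called between 9 and 3 months in silica lungs, 0 changed direction in any fit that tested them. Filters and thinning left some genes untested. Of the 113 tested in every alternative 81 kept their call throughout, and of the 132 tested in every fit that left out 1 library 117 did. DESeq2 gave no adjusted p for Ifi27l2a, Esm1, Col15a1 and Apln. Among the 20 not called, Alas2 ran from -0.0016 without Pds+/+ replicate 2 of 9 months, where it was reversed, to 1.19 without Pds+/+ replicate 1 of 3 months. The count of genes called in silica lungs was 900 with libraries thinned to the shallowest, and 1371 to 1872 with 1 library left out. Thinning gave 430 in Pds-/- lungs (753 to 1070 with 1 library left out) and 184 in Pds+/+ lungs, where the model of all 70 libraries gave 207, voom with quality weights 579 and leaving out 1 library 156 to 654. The genotype difference called 1 gene in DESeq2, 1 in voom, and 0 to 5 with 1 library left out, 5 without Pds-/- replicate 2 of 9 months.

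The silica change minus the air change, 3 genes as reported, called 60 in DESeq2, 97 in the model of all 70 libraries, 1 with DESeq2 size factors, 1 among genes of at least 1 CPM, 1 with genes over 1% of counts removed, 0 in voom, 1 without the 3 air libraries that stood apart and 0 without these and the silica library that stood apart. The last 2 were chosen after seeing the data. It ranged from 0 to 109 with 1 library left out: 0 without Pds+/+ air replicate 5 of 9 months, 109, 57, 39 and 40 without Pds-/- air replicates 1, 2, 3 and 6 of 9 months, 27, 16, 5 and 16 without Pds+/+ air replicates 1 to 4 of 9 months, 9 without Pds+/+ air replicate 5 of 3 months, 7 without Pds+/+ silica replicate 5 of 9 months, 6 without Pds-/- silica replicate 4 or 5 of 3 months, 4 without Pds+/+ silica replicate 5 or Pds-/- air replicate 1 of 3 months, and 1 to 3 when any 1 of the remaining libraries was left out. The cause was not tested. No paired analysis was possible because each library is 1 mouse with its own animal number, and the labels pair no mice across groups. Low genes are limited by 868097 to 3468575 counts per silica library.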
